A study of Mus musculus with 27 samples.

Results

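The xenobiotic receptors CAR, encoded by *Nr1i3*, and PXR, encoded by *Nr1i2*, were examined together with 8 cytochrome P450 genes of the Cyp2b and Cyp2c subfamilies that they control, in mouse liver RNA-Seq. These are 10 of 23191 gene symbols in the count table, and they were chosen by symbol with earlier results of the same data in view. The differences of these 10 genes between groups are therefore given as a description, with standard errors and intervals. Genes past a threshold are only counted, beside the share of all genes, and no p-value of a single one of the 10 is given for these differences. Livers came from 27 male mice on the C57BL/6J background in 4 groups. Littermate control mice on chow (n = 7) and on a diet rich in fat and sucrose (HF/HS; n = 7) were set beside HGFAC-KO mice on chow (n = 6) and on HF/HS diet (n = 7). HGFAC-KO mice lack HGFAC, a circulating protease that activates hepatocyte growth factor, in the whole body, through a CRISPR/Cas9 deletion from the middle of the first exon through the second exon of *Hgfac*. Mice were 8 weeks old when the diets began and were studied after 4 weeks, so all groups share sex, background and age. No group is described as receiving a CAR or PXR activating drug. The chow and the HF/HS diet were different products from different makers. Their fat and sucrose content cannot be told apart here from other differences in composition.

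CAR and PXR are nuclear receptors that pair with the retinoid X receptor and switch on genes for the uptake, oxidation, conjugation and export of drugs, steroids and bile acids. CAR is held in the cytoplasm of resting hepatocytes and moves to the nucleus when phenobarbital-like compounds or loss of EGF receptor signaling release it, whereas PXR is activated by direct binding of a wide range of ligands. *Cyp2b10* is the classical CAR target of mouse liver, *Cyp2c29*, *Cyp2c37* and *Cyp2c55* are inducible through the same receptors, and *Cyp2b9* and *Cyp2b13* are expressed mainly in female liver. CYP2C enzymes also oxidize arachidonic acid and other polyunsaturated fatty acids to epoxides and hydroxy acids.

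Total counts ran from 36056177 to 57298657 per mouse. *Hgfac* was lower in HGFAC-KO than in control mice on chow (log2 fold change -1.41, standard error 0.07, adjusted p = 3.05e-08) and on HF/HS (log2 fold change -1.56, standard error 0.06, adjusted p = 1.66e-10, both from edgeR's quasi-likelihood test). Reads from the exons that the deletion leaves in place are still counted, and the HGFAC-KO mice kept 65.4 to 101 CPM, which are read counts scaled to effective library sizes. The 5 hepatocyte markers (*Alb*, *Apoa1*, *Ttr*, *Cps1* and *Tat*) summed to between 72437 and 110820 CPM in every mouse. Of the foreign-tissue lists, 5 pancreas markers stayed at or below 1.599 CPM and 5 intestine markers summed to 47.9 to 125 CPM, with *Sis* at 0 in all mice.

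The 8 P450 genes lie in a pair of clusters of mouse genome build GRCm38. *Cyp2b10* (chromosome 7, 25897620 to 25926624), *Cyp2b13* (26061497 to 26096197) and *Cyp2b9* (26173411 to 26210661) follow each other on the plus strand. On chromosome 19 *Cyp2c55* (39007019 to 39042693) and *Cyp2c29* (39269405 to 39330713) come first, and *Cyp2c37* (39992424 to 40012243), *Cyp2c54* (40037940 to 40073827, minus strand) and *Cyp2c50* (40089688 to 40113950) lie together at the other side of the cluster. *Nr1i3* is on chromosome 1 (171213970 to 171220701) and *Nr1i2* on the minus strand of chromosome 16 (38248323 to 38294824). Reading frames were 96.1% identical between *Cyp2c37* and *Cyp2c50*, 95.3% between *Cyp2c50* and *Cyp2c54* and 95.1% between *Cyp2c37* and *Cyp2c54*. *Cyp2c29* and *Cyp2c55* were more distant, with 77.6% identity to each other and at most 83.1% identity between *Cyp2c29* and the other 3 genes. Of the 50-base windows in the reading frame, the read length used, 32.1% in *Cyp2c37*, 32.4% in *Cyp2c50* and 26.8% in *Cyp2c54* also occur in transcripts of another gene, so single values of these 3 genes are uncertain where reads could not be placed. The same share was 2.53% for *Cyp2c29*, 0 for *Cyp2c55*, 12.4% for *Cyp2b10*, 12.7% for *Cyp2b9* and 33.3% for *Cyp2b13*.

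The windows from 250 bases before to 50 bases after the RefSeq start site (build GRCm38.p6) are shown for the 3 genes that did not overlap between diets and for *Cyp2c37*, whose level differed little between diets. Capitals mark matches to the nuclear receptor motifs AGGTCA and AGTTCA or to the TATA box letters TATAAA, each searched on both strands. The windows are chr7:25897408-25897707 for *Cyp2b10*, chr19:39006769-39007068 for *Cyp2c55*, chr19:39286835-39287134 for *Cyp2c29* and chr19:39992174-39992473 for *Cyp2c37*, all on the plus strand.
Cyp2b10: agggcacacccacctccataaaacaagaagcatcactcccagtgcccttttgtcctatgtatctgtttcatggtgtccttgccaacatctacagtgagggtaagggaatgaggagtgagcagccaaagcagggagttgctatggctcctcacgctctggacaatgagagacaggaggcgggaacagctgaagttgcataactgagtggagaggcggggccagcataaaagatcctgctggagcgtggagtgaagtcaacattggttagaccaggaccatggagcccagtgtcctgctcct
Cyp2c55: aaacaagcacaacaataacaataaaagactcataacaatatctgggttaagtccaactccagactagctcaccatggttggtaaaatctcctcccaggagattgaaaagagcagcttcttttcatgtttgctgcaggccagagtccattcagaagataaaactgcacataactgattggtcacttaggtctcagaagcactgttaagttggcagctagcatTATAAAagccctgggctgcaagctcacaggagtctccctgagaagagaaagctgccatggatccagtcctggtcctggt
Cyp2c29: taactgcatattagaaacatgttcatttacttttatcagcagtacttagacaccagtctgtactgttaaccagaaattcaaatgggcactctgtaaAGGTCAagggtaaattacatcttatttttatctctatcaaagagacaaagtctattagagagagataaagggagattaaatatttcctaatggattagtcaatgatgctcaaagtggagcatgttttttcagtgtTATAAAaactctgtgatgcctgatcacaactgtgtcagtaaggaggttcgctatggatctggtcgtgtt
Cyp2c37: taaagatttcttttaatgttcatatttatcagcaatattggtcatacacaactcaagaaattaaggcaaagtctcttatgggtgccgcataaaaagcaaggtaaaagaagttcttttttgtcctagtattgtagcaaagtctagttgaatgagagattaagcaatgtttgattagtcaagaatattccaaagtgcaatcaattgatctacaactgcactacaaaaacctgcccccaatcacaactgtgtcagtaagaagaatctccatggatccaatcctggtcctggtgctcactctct
*Cyp2c29* held AGGTCA at -154 to -149 and TATAAA at -19 to -14 relative to the start site, *Cyp2c55* held TATAAA at -29 to -24, and *Cyp2b10* and *Cyp2c37* held no match. Windows were found for 9 of the 10 genes (not *Cyp2c54*), of which 3 held AGGTCA (*Cyp2b9*, *Cyp2b13* and *Cyp2c29*) and 1 held AGTTCA (*Cyp2c50*). Over all 32851 RefSeq windows of this length 16.3% held AGGTCA, 13.99% held AGTTCA and 13.6% held TATAAA. Pairs of these motifs in direct repeat with a spacer of 4 bases (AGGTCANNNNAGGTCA, AGGTCANNNNAGTTCA, AGTTCANNNNAGGTCA or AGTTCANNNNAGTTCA) occurred in 0 of the 9 windows and in 0.0274% of all windows. The search covered only these short windows and exact letters. Sites farther from the start site, with other letters or in another arrangement were not examined, so no lack of a receptor site is read from it. The *Cyp2b9* and *Cyp2b13* windows were 99.3% identical to each other and each 71.7% identical to that of *Cyp2b10*.

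*Nr1i3* and *Nr1i2* transcript levels overlapped between all 4 groups. *Nr1i3* had a level of 106, 164 and 192 CPM (lowest, median and highest mouse) in control mice on chow and of 109, 138 and 209 CPM in control mice on HF/HS. In HGFAC-KO mice it ran from 96.5 through a median of 174 to 184 CPM on chow and from 91.8 through 113 to 190.4 CPM on HF/HS. HF/HS over chow, its log2 fold change was -0.12 (standard error 0.14, 95% interval -0.43 to 0.19) in controls and -0.30 (standard error 0.17, interval -0.67 to 0.06) in HGFAC-KO mice. The order of the group means was control chow, KO chow, control HF/HS and KO HF/HS, and each neighboring pair of groups overlapped.

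*Nr1i2* varied less between mice, with a coefficient of variation of 10.6% to 18.5% within a group against 18.1% to 25.4% for *Nr1i3*. In controls it was measured at 54.9 ± 5.84 CPM (SD, n = 7) on chow and 61.2 ± 7.08 (n = 7) on HF/HS, and in HGFAC-KO mice at 52.8 ± 8.29 (n = 6) and 54.9 ± 10.2 (n = 7). The HF/HS over chow log2 fold change was 0.15 (interval -0.01 to 0.32) in controls and 0.06 (interval -0.21 to 0.32) in HGFAC-KO mice. Neither receptor transcript therefore had an interval that excluded equal levels on the 2 diets.

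The *Nr1i3* counts have a limit of their own. *Tomm40l*, a gene for a mitochondrial import pore protein, overlaps 4691 bases of *Nr1i3* on the opposite strand, and 51.1% of the 50-base windows of the *Nr1i3* reading frame lie in *Tomm40l* transcripts. The library kit marked strand, but the strand setting of the counting was not stated. *Tomm40l* had 136 ± 24.4 CPM in controls on chow and 130 ± 30.5 CPM in controls on HF/HS, and its differences from the group means were nearly those of *Nr1i3* (r = 0.968 over 27 mice). The part that shared reads have in the *Nr1i3* values was not tested.

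**Figure D1:**
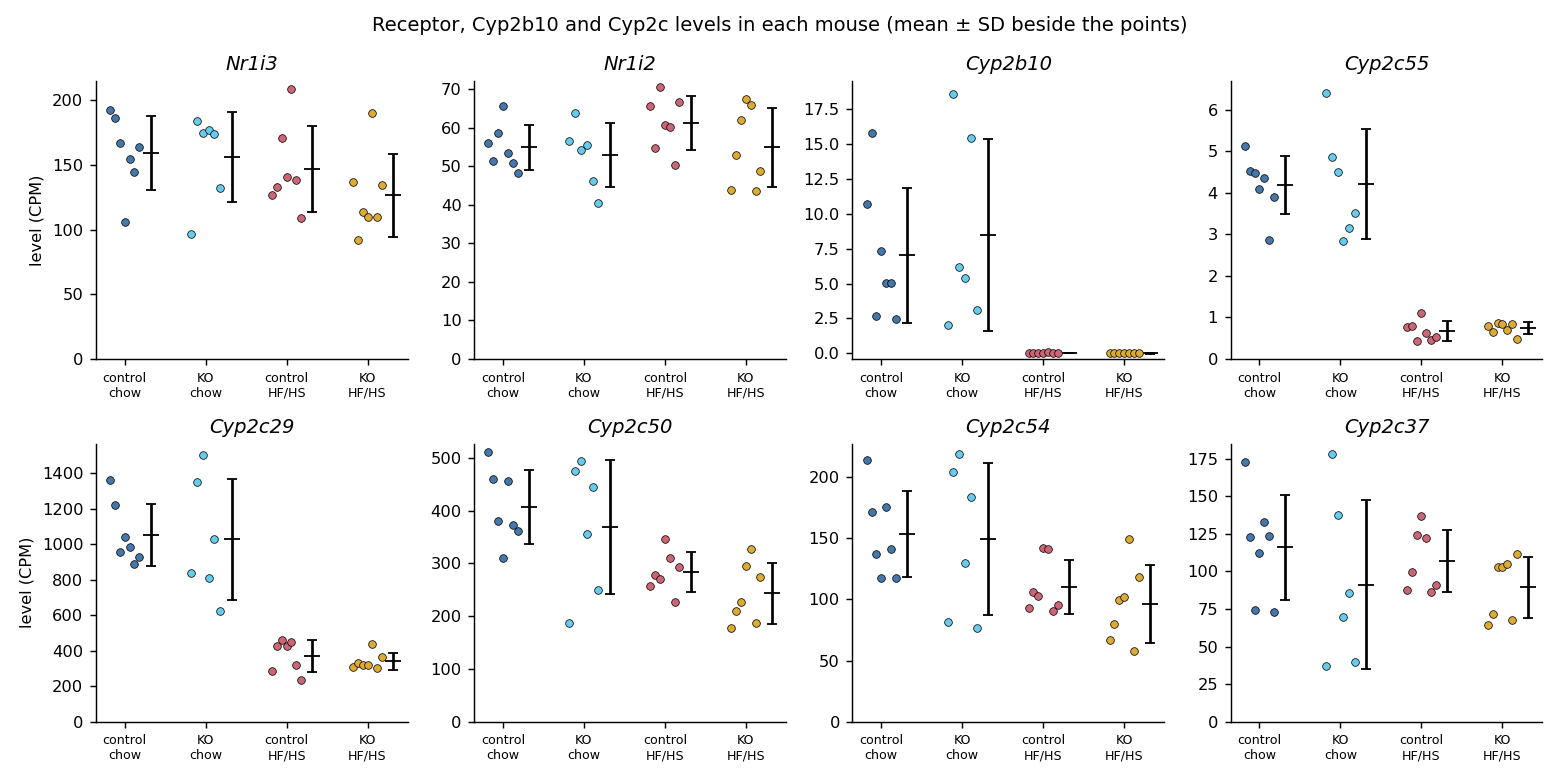
Levels of 8 of the 10 genes in each mouse, in CPM scaled to effective library sizes, in the 4 genotype and diet groups (points, single mice; bars, mean ± SD). *Cyp2b10*, *Cyp2c55* and *Cyp2c29* levels on HF/HS lay below those of every chow mouse, whereas the receptor, *Cyp2c50*, *Cyp2c54* and *Cyp2c37* levels overlapped.

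*Cyp2b10* had the largest diet difference of the 10 genes. In controls on chow it was measured at 2.50, 5.02 and 15.8 CPM (lowest, median and highest mouse), which are 116 to 642 raw counts, and in HGFAC-KO mice on chow at 2.05, 5.80 and 18.6 CPM, which are 84 to 799 raw counts. On HF/HS the raw counts were 0 to 3 in controls, with 2 of 7 mice at 0, and 0 to 2 in HGFAC-KO mice, with 4 of 7 mice at 0. Every HF/HS mouse was below every chow mouse, and the genotypes overlapped on each diet. A count of 0 allows up to 3 counts, or 0.0546 to 0.0875 CPM depending on the library.

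Summed over mice, controls had 2227 *Cyp2b10* counts on chow and 10 on HF/HS, a ratio of 200.5 per effective library size (95% exact interval 109 to 419). HGFAC-KO mice had 2167 and 4 counts, a ratio of 687 (interval 268 to 2522). These intervals cover counting error only, and the 2 ratios cannot be ordered from them. The fitted log2 fold changes were -7.56 (standard error 0.66) in controls and -9.11 (standard error 0.84) in HGFAC-KO mice, values that depend on how nearly empty libraries are treated. *Cyp2b10* passed the filter on low counts only through the chow groups. Among the chow mice its level varied with a coefficient of variation of 68.5% in controls and 81.0% in HGFAC-KO mice, the widest of any of the 10 genes with counts in every chow mouse.

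*Cyp2b9* was scattered among mice rather than ordered by group. Its highest raw counts were 49 and 13 in controls on chow, 26 and 18 in HGFAC-KO mice on chow, and 16 and 10 in controls on HF/HS, whereas the highest HGFAC-KO mouse on HF/HS had 6. In all, 6 of the 27 livers had no *Cyp2b9* read, and each group held at least 1 of them. The chow over HF/HS ratio of summed counts was 2.01 in controls (interval 1.29 to 3.20) and 4.78 in HGFAC-KO mice (interval 2.55 to 9.60), but in controls on chow 1 mouse carried 49 of 67 counts. *Cyp2b13* had 0 or 1 count in every mouse, 5 reads over the 27 libraries, so no difference was detectable at this depth. Both genes failed the filter on low counts in each comparison of 2 groups. Of the other Cyp2b genes, *Cyp2b23* had no read in any mouse and *Cyp2b19* had 1.

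**Figure D2:**
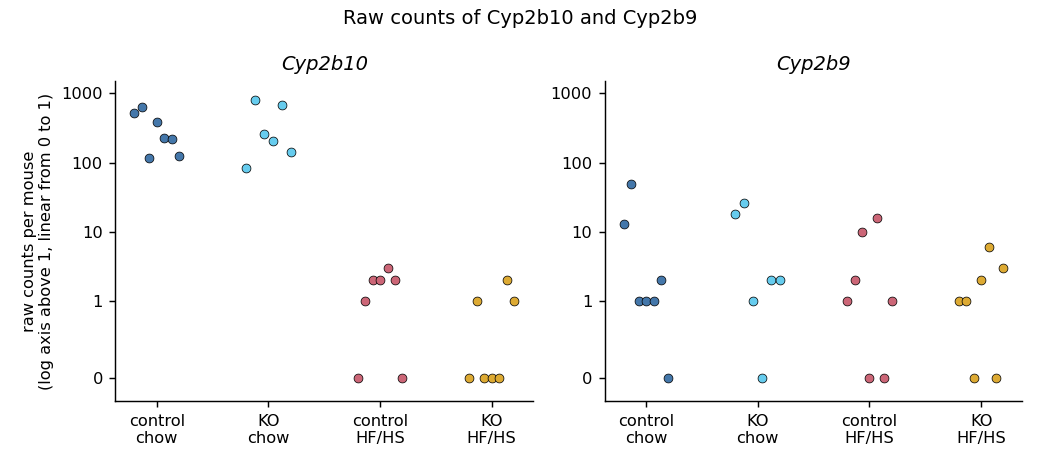
Raw counts of *Cyp2b10* and *Cyp2b9* in each mouse of the 4 groups on a logarithmic axis that is linear between 0 and 1. *Cyp2b10* drops from 84 to 799 counts on chow to at most 3 on HF/HS, whereas the 6 highest *Cyp2b9* mice are spread over 3 groups.

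*Cyp2c55* and *Cyp2c29* were also lower on HF/HS without overlap between diets in either genotype. *Cyp2c55* had 2.87, 4.36 and 5.13 CPM (lowest, median, highest) in controls on chow and 0.438, 0.619 and 1.11 CPM on HF/HS, a log2 fold change of -2.63 (standard error 0.18, interval -3.02 to -2.24). In HGFAC-KO mice the *Cyp2c55* values were 2.84, 4.01 and 6.39 CPM on chow and 0.477, 0.788 and 0.878 CPM on HF/HS (log2 fold change -2.50, standard error 0.20, interval -2.93 to -2.07). *Cyp2c29*, the most abundant of the 10 transcripts per length, had 888, 986 and 1364 CPM in controls on chow and 233, 424 and 460 CPM on HF/HS (log2 fold change -1.51, standard error 0.15, interval -1.83 to -1.18). In HGFAC-KO mice it had 626, 935 and 1503 CPM on chow and 305, 320.0 and 438 CPM on HF/HS (log2 fold change -1.59, standard error 0.17, interval -1.96 to -1.22). Part of the annotated *Cyp2c29* span, 5581 bases, overlaps the pseudogene *Cyp2c53-ps* on the same strand.

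The 3 closely related genes *Cyp2c37*, *Cyp2c50* and *Cyp2c54* differed much less between diets. *Cyp2c50* had 311, 381 and 510.4 CPM in controls on chow and 227, 279 and 346 CPM on HF/HS, a log2 fold change of -0.53 (interval -0.76 to -0.30) with overlapping ranges. Its log2 fold change in HGFAC-KO mice was -0.60 (interval -1.07 to -0.13). *Cyp2c54* had log2 fold changes of -0.48 (interval -0.80 to -0.17) in controls and -0.63 (interval -1.25 to -0.02) in HGFAC-KO mice. *Cyp2c37* was at 116 ± 34.7 CPM (SD, n = 7) in controls on chow and 107 ± 20.6 CPM (n = 7) on HF/HS, a log2 fold change of -0.12 (interval -0.51 to 0.27), and the HGFAC-KO value was -0.03 (interval -0.76 to 0.71). The lowest *Cyp2c37* level, 37.1 CPM, and the highest, 178 CPM, were both in HGFAC-KO mice on chow.

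Of the 8 genes tested, 4 were below on HF/HS past an adjusted p of 0.05 in controls (*Cyp2b10*, *Cyp2c29*, *Cyp2c50* and *Cyp2c55*), where 5.60% of 13525 genes were, and 3 in HGFAC-KO mice (*Cyp2b10*, *Cyp2c29* and *Cyp2c55*), where 2.73% of 13613 genes were. Above on HF/HS were 0 of the 8 in either genotype, against 4.93% of all genes in controls and 3.17% in HGFAC-KO mice. No overlap between diets, with HF/HS below, was seen for 3 of the 10 genes in each genotype, against 1.95% of all genes tested in controls and 1.31% in HGFAC-KO mice. Because results of this kind were known when the genes were chosen, nothing is read from these counts. In whole liver, fewer cells of a type and less RNA per cell cannot be told apart. The hepatocyte markers summed to a median of 76980 CPM in controls on chow and 77697 CPM in controls on HF/HS, and to 89458 and 99490 CPM in HGFAC-KO mice, a sum made up mostly of *Alb*. Another of these markers, *Tat*, fell from 1861 to 1311 CPM in controls (edgeR adjusted p = 0.0480, a call lost in 13 alternative settings) and, in HGFAC-KO mice, from 1777 to 1056 CPM (adjusted p = 0.0121). *Apoa1* rose in controls (log2 fold change 0.39, adjusted p = 0.000292) and was at -0.07 in HGFAC-KO mice, and *Alb*, *Ttr* and *Cps1* did not pass the threshold in either. Of 6 Kupffer cell markers 3 (*Cd68*, *Clec4f* and *Adgre1*) rose on HF/HS in HGFAC-KO mice, with summed levels of 69.5 to 104 CPM on chow and 91.9 to 148 CPM on HF/HS in HGFAC-KO mice, the *Adgre1* call being lost in 10 alternative settings. In controls 0 of the 6 passed the threshold, with a median sum of 104.65 CPM on chow and 114.09 CPM on HF/HS. In each genotype 1 of the 6 had a negative log2 fold change. Sinusoidal endothelium markers had a median sum of 135 CPM on chow and 170.2 on HF/HS in controls, and of 118 and 156 in HGFAC-KO mice. The intestine sum had medians of 63.1 and 122 CPM in controls and of 58.5 and 77.0 in HGFAC-KO mice. Of the 5 intestine markers only *Fabp2* passed the filter on low counts in either diet comparison (log2 fold change 0.71 in controls and 0.42 in HGFAC-KO mice). The 6 stellate cell markers had a median sum of 222 and 235 CPM in controls and of 198 and 245 in HGFAC-KO mice. Of these 6, *Lrat* alone passed the threshold in controls, where it fell (log2 fold change -0.60, adjusted p = 0.0273, a call lost in 3 settings), and the other 5 had higher means on HF/HS. The part of these markers in the results above was not tested.

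**Figure D3:**
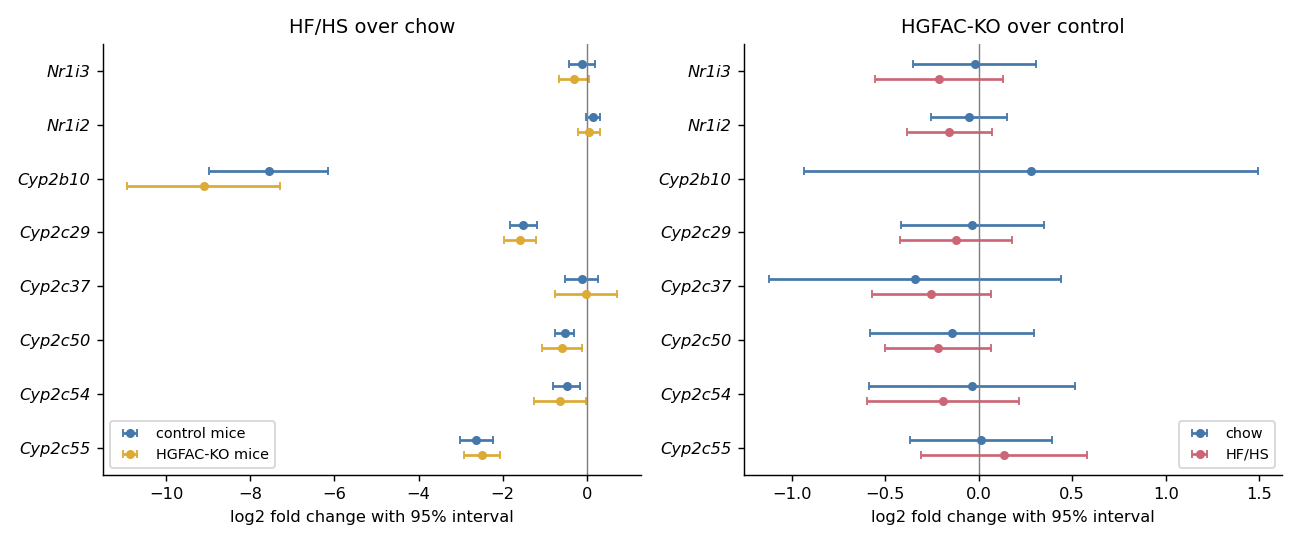
Log2 fold changes with 95% intervals for HF/HS over chow (left, by genotype) and HGFAC-KO over control (right, by diet) from the edgeR fits of the 8 genes that passed the filter. *Cyp2b10* on HF/HS has no genotype value because it failed the filter there, and each genotype interval spans 0.

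Per kilobase of exon, the order of mean levels was *Cyp2c29*, *Cyp2c50*, *Cyp2c54*, *Cyp2c37*, *Nr1i3* and *Nr1i2* in each of the 4 groups. *Cyp2c29* had 344 CPM per kilobase in controls on chow and 121 on HF/HS, and *Cyp2c50* had 139.6 and 97.1. *Cyp2b10* with 3.32 stood above *Cyp2c55* with 2.102 in controls on chow, and below it on HF/HS (0.0173 against 0.338). As a share of all Cyp2c transcripts per length, *Cyp2c29* was 35.0% ± 2.55 (SD, n = 7) in controls on chow and 17.1% ± 3.55 on HF/HS, and 35.2% ± 3.22 and 16.8% ± 1.97 in HGFAC-KO mice. The Cyp2c genes together had 2429 ± 344 CPM in controls on chow and 1595 ± 169 on HF/HS, and 2325 ± 628 and 1500.2 ± 240.1 in HGFAC-KO mice.

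Between genotypes, 0 of the 8 genes tested on chow and 0 of the 7 tested on HF/HS passed the threshold in edgeR or in DESeq2, and 0 had an unadjusted p under 0.05 in edgeR, against 0.00737% and 0.0148% of all genes past the threshold. No gene of the 10 separated the genotypes without overlap on either diet, where 0.125% and 0.0812% of all genes did. These genes were chosen with results of the data known, so these counts and those of the interaction below are a description. The log2 fold changes on chow, HGFAC-KO over control, lay between -0.34 for *Cyp2c37* (interval -1.12 to 0.44) and 0.28 for *Cyp2b10* (interval -0.93 to 1.49). On HF/HS they lay between -0.25 for *Cyp2c37* (interval -0.57 to 0.06) and 0.13 for *Cyp2c55* (interval -0.31 to 0.58), and *Nr1i3* was at -0.21 (interval -0.55 to 0.13). The *Nr1i2* intervals (-0.26 to 0.15 on chow, -0.39 to 0.07 on HF/HS) and the *Cyp2c29* intervals (-0.42 to 0.35 and -0.42 to 0.18) were narrower than those of *Cyp2c37* on the same diet. The diet difference of *Cyp2c29* differed between genotypes by -0.08 on the log2 scale (interval -0.58 to 0.41), that of *Cyp2c55* by 0.13 (interval -0.44 to 0.70) and that of *Cyp2b10* by -1.56 (interval -5.73 to 2.62). In this test of the interaction 0 of 9 genes passed the threshold or had an unadjusted p under 0.05, against 0% of 13932 genes past the threshold.

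Among mice of one group, *Nr1i3* levels correlated with those of 4 Cyp2c genes over all 27 mice, a relation that rested in part on 2 mice. For *Cyp2c37* the call was also lost when single other mice were left out. After the mean of each group was subtracted from log2 CPM, Pearson's r between *Nr1i3* and *Cyp2c54* was 0.675 over 27 mice (two-sided permutation test within groups, p = 0.00038, adjusted p = 0.00584 over 16 receptor and target pairs), with Spearman's rho of 0.699 (permutation p = 0.00031, adjusted p = 0.00496). For *Cyp2c50* r was 0.663 (permutation p = 0.00073, adjusted p = 0.00584) and rho was 0.652 (permutation p = 0.00115, adjusted p = 0.00613). For *Cyp2c29* r was 0.607 (permutation p = 0.0016, adjusted p = 0.00853) and rho was 0.655 (permutation p = 0.00078, adjusted p = 0.00613). For *Cyp2c37* r was 0.516 (permutation p = 0.0104, adjusted p = 0.0417) and rho was 0.557 (permutation p = 0.00701, adjusted p = 0.0280).

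Without the 2 mice farthest from their own group's mean of *Nr1i3* (KO chow replicate 1 and KO HF/HS replicate 5, a check chosen after the data were seen), r over 25 mice was 0.525 for *Cyp2c54* and 0.576 for *Cyp2c29* (permutation test, adjusted p = 0.0354 for both). It was 0.453 for *Cyp2c50* (permutation test, adjusted p = 0.0724) and 0.378 for *Cyp2c37* (permutation test, adjusted p = 0.151), and by Spearman's rho none of the 4 passed the threshold there (permutation test, lowest adjusted p = 0.116). There rho was 0.544 for *Cyp2c29* (permutation p = 0.00723), 0.472 for *Cyp2c54* (permutation p = 0.0212), 0.383 for *Cyp2c50* (permutation p = 0.0680) and 0.302 for *Cyp2c37* (permutation p = 0.150). So the calls of *Cyp2c50* and *Cyp2c37*, and all 4 calls by rank, did not hold without those 2 mice, while r and rho stayed positive. The *Cyp2c37* call by r was also lost when single other mice were left out, among them control chow replicate 1 (permutation test, highest adjusted p = 0.0840). Those of *Cyp2c54*, *Cyp2c50* and *Cyp2c29* held in every omission of 1 mouse (permutation test, highest adjusted p = 0.0206, 0.0206 and 0.0485). Without the 2 mice farthest from the median uncentred level of *Nr1i3*, which are KO HF/HS replicate 2 and control HF/HS replicate 5, r was 0.670, 0.686 and 0.609 for *Cyp2c54*, *Cyp2c50* and *Cyp2c29*, and for *Cyp2c37* it was 0.515 with an adjusted p of 0.101 in the permutation test. Within single groups r with *Nr1i3* ran from 0.593 to 0.832 for *Cyp2c54*, from 0.204 to 0.947 for *Cyp2c50*, from 0.465 to 0.779 for *Cyp2c29* and from 0.131 to 0.819 for *Cyp2c37*. As a background, 1.32%, 1.57%, 2.84% and 6.09% of 13931 genes had an r with *Nr1i3* at least as high as these 4 genes in the same order. The 3 related Cyp2c genes share sequence and moved together, so the 4 relations are not independent. *Tomm40l*, which shares reads with *Nr1i3* in principle, had r of 0.641 with *Cyp2c54* and 0.622 with *Cyp2c50*.

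*Cyp2b10* and *Cyp2c55* did not pass this test, and the HF/HS mice, with 0 to 3 *Cyp2b10* counts each, carry little information on that gene. Between *Nr1i3* and *Cyp2b10* r was 0.427 (permutation p = 0.0387, adjusted p = 0.117) and rho was 0.468 (permutation p = 0.0244, adjusted p = 0.0781), with 10.5% of genes at least as high. Within the chow groups this r was 0.168 in controls and 0.826 in HGFAC-KO mice. Between *Nr1i3* and *Cyp2c55* r was -0.183 (permutation p = 0.400, adjusted p = 0.457) and rho was -0.0880 (permutation p = 0.683, adjusted p = 0.683). None of the 8 pairs with *Nr1i2* passed, and the highest r was 0.428 with *Cyp2c37* (permutation p = 0.0441, adjusted p = 0.117; rho 0.406, permutation p = 0.0584, adjusted p = 0.156). No sequencing batch is given in the labels, so the relations could not be examined within batches.

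**Figure D4:**
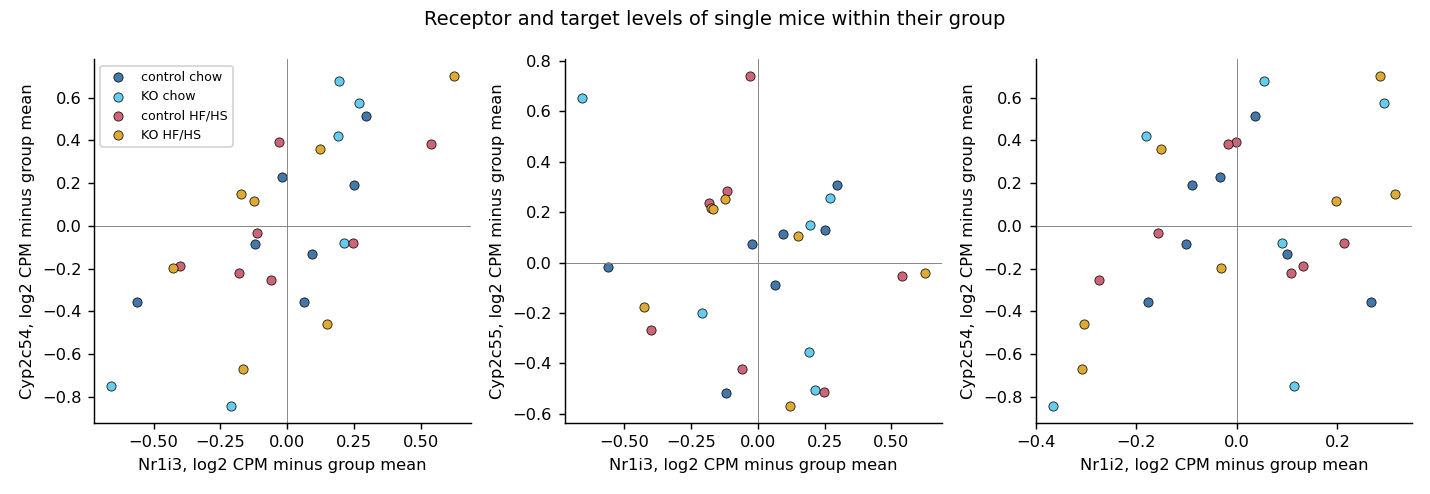
Receptor level against target level for 3 pairs, each as log2 CPM minus the mean of the mouse's own group (points, 27 mice, colored by group). *Nr1i3* and *Cyp2c54* lie along a rising band (r = 0.675, and 0.525 without the 2 mice farthest from their group's mean of *Nr1i3*), whereas *Nr1i3* with *Cyp2c55* (r = -0.183) and *Nr1i2* with *Cyp2c54* (r = 0.400) are more scattered.

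The genes whose levels within groups were most like each of the 10, among 13931 others and over 27 mice, are given without a test. For *Cyp2c50* they were *Cyp2c54* (r = 0.937), *Ugt1a1* (r = 0.844) and *Sugct* (r = 0.844), for *Cyp2c54* they were *Cyp2c50*, *Cyp2c37* (r = 0.877) and *Sugct* (r = 0.857), and for *Cyp2c37* they were *Cyp2c54*, *Cyp2c50* (r = 0.841) and *Ugt1a1* (r = 0.816). *Ugt1a1* encodes the bilirubin-conjugating enzyme. For *Cyp2c29* they were *Tmprss6* (r = 0.886), the ketohexokinase gene *Khk* (r = 0.855) and *Tec* (r = 0.840). For *Nr1i3* they were *Tomm40l*, the glycerol channel gene *Aqp9* (r = 0.919) and the carnitine carrier gene *Slc25a20* (r = 0.913), and for *Nr1i2* they were *Cyp3a59* (r = 0.807), *Trim12a* (r = 0.792) and *Ivd* (r = 0.757). Among the low-count genes, *Alkbh3*, *Nlrx1* and *Elmod3* lay between 0.785 and 0.789 for *Cyp2b10*, *Fam229b*, *Rbak* and *Taf12* between 0.681 and 0.709 for *Cyp2c55*, and *Cnbp*, *Ndrg1* and *Mpdu1* between 0.760 and 0.779 for *Cyp2b9*. For *Cyp2b13* the values of *Gm16845*, *Coa6* and *Tfrc* (0.625 to 0.635) rest on 5 reads.

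Most of the other genes listed as raised by CAR or PXR activators fell on HF/HS. The list was drawn up with earlier results of these data known, so its counts are a description. Of 36 such genes, 33 could be tested in controls, and 27 of them fell and 0 rose, with a median log2 fold change of -0.95 over the 33 genes and 0.00 over all genes tested, of which 5.60% fell. In HGFAC-KO mice 24 of 34 fell and 0 rose, with a median of -0.88, where 2.73% of all genes fell. *Cyp3a11*, the main steroid and drug oxidizing CYP3A of mouse liver, was at 5007 ± 586 CPM (SD, n = 7) in controls on chow and 531 ± 170.2 CPM (n = 7) on HF/HS. *Cyp3a11* fell by 3.24 on the log2 scale in controls (standard error 0.19, adjusted p = 5.78e-08) and by 3.06 in HGFAC-KO mice (standard error 0.16, adjusted p = 5.00e-08).

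In controls the other 3 genes of smallest p were the carboxylesterase *Ces2a* (log2 fold change -1.37, adjusted p = 3.77e-08), *Cyp3a25* (-1.42, adjusted p = 2.68e-07) and the glucuronosyltransferase *Ugt1a9* (-2.14, adjusted p = 9.10e-07). In HGFAC-KO mice they were the glutathione transferases *Gstm1* (-1.55, adjusted p = 2.51e-05) and *Gstm3* (-2.46, adjusted p = 6.85e-05) and the glucuronosyltransferase *Ugt2b35* (-0.68, adjusted p = 2.66e-05), all from edgeR's quasi-likelihood test. *Alas1*, the rate-limiting enzyme of heme synthesis and itself a CAR and PXR target, had log2 fold changes of -0.02 (standard error 0.36) and -0.05 (standard error 0.22). Single UGT1A and GSTM genes share exons or sequence with their relatives, and reads between them could be split. These genes were listed with earlier results of the data known, and glutathione transferases and *Abcc* exporters also answer to other regulators such as NRF2.

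**Figure D5:**
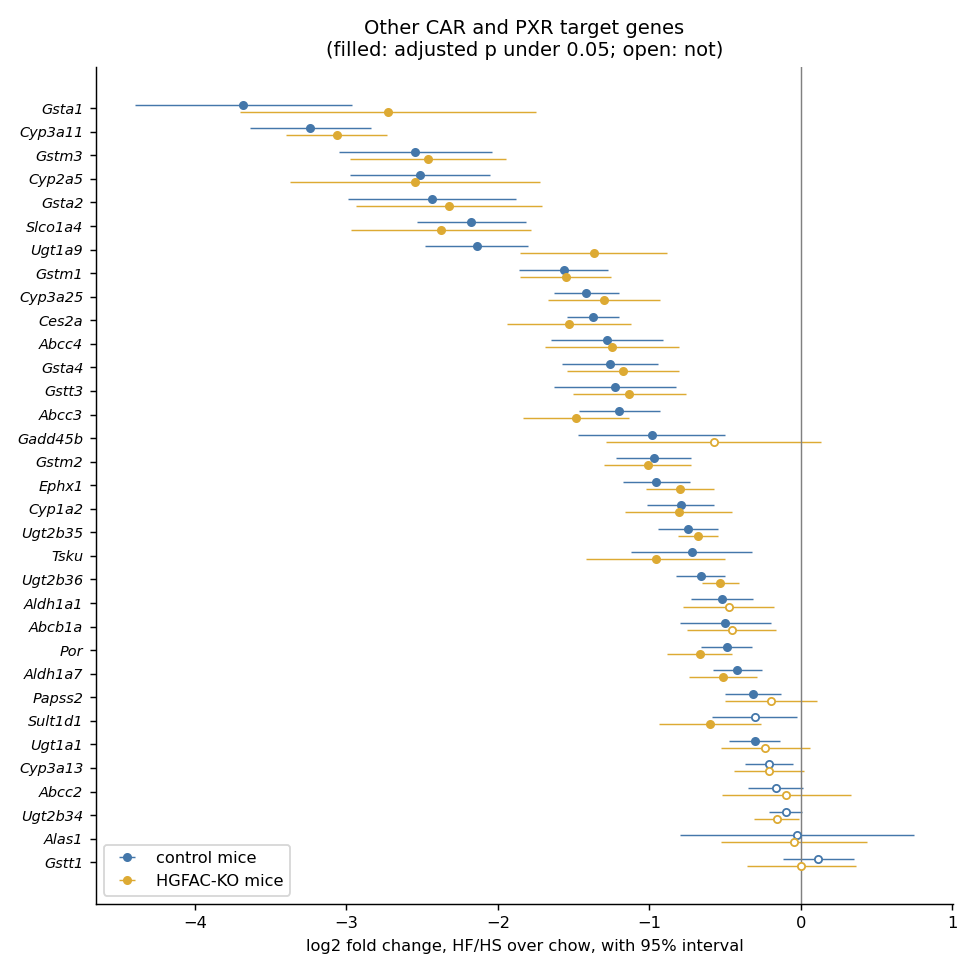
Log2 fold changes with 95% intervals, HF/HS over chow, of the 33 other CAR and PXR target genes tested in control mice, with the HGFAC-KO values beside them (filled points, adjusted p under 0.05; open points, not). Of the 33 genes, 27 are filled in controls, all to the left of 0.

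The remaining Cyp2c genes did not share one direction. Of 8 tested in controls, *Cyp2c39* fell (log2 fold change -1.01, standard error 0.19, adjusted p = 0.00235) and 0 rose, where 5.60% of all genes fell and 4.93% rose. *Cyp2c67* was at 0.28, *Cyp2c70* at 0.33, *Cyp2c69* at 0.36, *Cyp2c40* at 0.00, *Cyp2c68* at -0.09, *Cyp2c23* at -0.18 and *Cyp2c38* at -0.60, none of them past the threshold. In HGFAC-KO mice *Cyp2c67* (0.46, standard error 0.10, adjusted p = 0.0115) and *Cyp2c69* (1.503, standard error 0.34, adjusted p = 0.0192) rose and 0 fell, where 3.17% of all genes rose and 2.73% fell. There *Cyp2c23* was at -0.30, *Cyp2c38* at -0.18, *Cyp2c39* at -0.07, *Cyp2c68* at 0.27, *Cyp2c70* at 0.29 and *Cyp2c40* at 0.93. The difference between genotypes in the *Cyp2c39* diet change was 0.94 (standard error 0.31, adjusted p = 0.984), so a genotype difference was not shown.

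Of 16 dimer partners, retention proteins and coregulators of the receptors, 0 passed the threshold in controls in edgeR and in DESeq2, and 2 had an unadjusted p under 0.05. *Rxra*, the dimer partner, had the smallest p there (log2 fold change 0.21, standard error 0.09, adjusted p = 0.146). In HGFAC-KO mice *Egfr*, whose signaling keeps CAR inactive, was the 1 gene that rose (0.61, standard error 0.13, adjusted p = 0.0122), and in controls it was at 0.60 (standard error 0.25, adjusted p = 0.153). Of 8 transcription factors that act on the receptor genes, *Ppara* (0.42, standard error 0.10, adjusted p = 0.0162) and the clock output factor *Dbp* (1.47, standard error 0.39, adjusted p = 0.0284) rose in controls, and *Foxa2* fell in HGFAC-KO mice (-0.29, standard error 0.08, adjusted p = 0.0329). In HGFAC-KO mice *Ppara* was at 0.46 (adjusted p = 0.0527). Of all genes tested, 4.93% rose and 5.60% fell in controls, and 3.17% rose and 2.73% fell in HGFAC-KO mice.

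Among 13 genes of P450 electron transfer and heme metabolism, the P450 reductase gene *Por* and the cytochrome b5 genes *Cyb5a* and *Cyb5b* fell in both genotypes, where 5.60% of all genes fell in controls and 2.73% in HGFAC-KO mice, the calls of *Cyb5a* being lost in 9 of the alternative settings in controls and in 7 in HGFAC-KO mice. *Por* fell by 0.49 on the log2 scale in controls (standard error 0.08, adjusted p = 0.000883) and by 0.67 in HGFAC-KO mice (standard error 0.10, adjusted p = 0.00118). *Cyb5b* fell by 0.32 (adjusted p = 0.00944) and by 0.30 (adjusted p = 0.0209), and *Cyb5a* by 0.29 (adjusted p = 0.0352) and by 0.42 (adjusted p = 0.0301). *Cpox*, of heme synthesis, rose in controls (0.20, adjusted p = 0.0385). *Por* is also counted among the CAR and PXR targets.

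*Cyp2b9* and *Cyp2b13* belong to the genes that are higher in female liver. Of 12 others of this class, 9 could be tested and 4 fell on HF/HS in each genotype, against 5.60% of all genes in controls and 2.73% in HGFAC-KO mice, all 4 of them Cyp3a genes. In controls the log2 fold changes were -4.58 for *Cyp3a41a*, -5.23 for *Cyp3a41b*, -3.87 for *Cyp3a16* and -2.85 for *Cyp3a44*, and in HGFAC-KO mice they were -3.87, -4.12, -2.94 and -2.70. On HF/HS *Cyp3a41a*, *Cyp3a41b* and *Cyp3a16* had 0 to 6, 0 to 4 and 0 to 5 raw counts in controls and 1 to 7, 0 to 22 and 2 to 14 in HGFAC-KO mice, so their fitted values depend on how nearly empty libraries are treated. In controls *Cyp3a41a*, *Cyp3a41b* and *Cyp3a16* passed the filter on low counts only through the chow group. Their calls are therefore given as a description, and nothing is read from the count of calls. These 4 genes are near-identical copies in part, so reads between them could be split. The other 5 genes tested, among them *Prom1*, *A1bg* and *Cux2*, did not pass the threshold in either genotype.

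Between genotypes, 0 of 35 other CAR and PXR targets tested on chow and 0 of 32 on HF/HS passed the threshold in edgeR or in DESeq2, while 3 and 4 of them were under 0.05 before adjustment. Over all genes, 812 of 13571 and 1306 of 13544 were under 0.05 before adjustment in edgeR. Lowest in p stood *Gstm2* on chow (log2 fold change -0.27, standard error 0.09, adjusted p = 0.801) and *Ugt1a9* on HF/HS (0.70, standard error 0.21, adjusted p = 0.411). In the interaction test 0 of 35 passed, 1 was under 0.05 before adjustment, and *Ugt1a9* came lowest in p (0.77, standard error 0.28, adjusted p = 0.984). The other Cyp2c genes and the partner, regulator, electron transfer and female-predominant lists also held 0 genes past the threshold between genotypes in both tools. Lowest in p among them were on chow *Cyp2c67* (-0.27), *Rxrg* (0.19), *Foxa2* (0.22), *Cyb5b* (-0.12) and *Atp6v0d2* (0.92), and on HF/HS *Cyp2c39* (0.50), *Ncoa2* (-0.15), *Tef* (-0.51), *Cpox* (-0.21) and *Cux2* (0.45), with values on the log2 scale and adjusted p between 0.428 and 0.822 in edgeR's test.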

How the data were processed

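Liver mRNA of 27 mice was sequenced as 50 bp paired-end, stranded libraries. Per the study's methods and the labels, the authors aligned reads to GRCm38 (mm10) with HISAT2 and deposited raw counts per gene made with featureCounts 1.6.3, whose strand setting and annotation are not given in the sources used here. Of 27179 table rows, 3886 without a gene name (4.13% to 12.1% of counts) were left out, and 23191 symbols remained. Groups came from the labels, and each library was taken as 1 mouse. No 2 libraries of a group agreed within sampling noise.

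Counts were fitted with edgeR 4.0.16 in R 4.3.3 (TMM normalization, filterByExpr with a minimum count of 10 and total of 15, robust quasi-likelihood test, Benjamini-Hochberg adjustment over all genes tested, threshold 0.05). Each diet and genotype comparison used its 2 groups, and the interaction used all 27 mice. No result of the fits is a set test. Relations between receptors and targets used log2 CPM with a prior count of 2 and 100000 permutations within groups. The fits and the correlation were tested on simulated data. Alternatives were DESeq2 1.42.0, limma voom (limma 3.58.1), no filter, upper-quartile normalization, a replicate block, 1 model over the 27 mice, and omission of single mice. Counting intervals are exact 95% intervals and cover counting error only. Gene positions and exon lengths are from GENCODE M21 (GRCm38), and promoter windows are from RefSeq (GRCm38.p6). Reading frames were the longest in protein-coding transcripts.

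The 10 genes and all lists were chosen with earlier results of these data known. Genes named in the text were the 10, *Hgfac*, up to 4 genes per direction with the smallest p in each list and comparison (the smallest p where none passed), the other Cyp2b and Cyp2c genes that passed the filter, and the 3 genes most alike to each of the 10. *Alas1*, *Prom1*, *A1bg*, *Cux2* and *Tomm40l*, as well as the second genotype's values of a gene named in the first, were added after their values were seen.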

Additional observations from a re-analysis of the deposited data

Results flagged for a closer look

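Each of the 10 genes was examined in each group for a mouse far from the others of its group, by the gap to the nearest mouse over the whole range of log2 CPM (Dixon's criterion). Of 40 sets of a gene in a group, 3 stood apart, all for *Cyp2b13*. In each of these sets a single mouse had 1 read and the others had 0, so the gap necessarily equals the range. The usual chance rate of about 1 in 20 does not hold for such tied counts. *Cyp2b13* was at 0.0246 CPM in control chow replicate 2, at 0.0232 CPM in KO chow replicate 2 and at 0.0204 CPM in control HF/HS replicate 2, and at 0 CPM in the other mice of those groups. Each of these values is 1 read, below the limit that a count of 0 allows.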

How the results depend on the processing

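Over the alternatives that kept every mouse, the genes past the threshold numbered 1228 to 1939 for diet in controls (1424 as reported) apart from the replicate block, and 602 to 1401 for diet in HGFAC-KO mice (802 as reported), where the 1401 came from DESeq2. Between genotypes DESeq2 called 13 genes on chow (1 as reported) and 55 on HF/HS (2 as reported), and the fit of all 27 mice called 1 on HF/HS. The interaction gave 0 genes throughout. Without single mice the counts were 976 to 1780 and 467 to 950 for diet in controls and in HGFAC-KO mice, 1 on chow and 2 to 11 on HF/HS between genotypes, and 3 to 5 of 16 receptor and target pairs (4 as reported, and 2 without the 2 mice farthest from their group's mean of the receptor, a setting added after the data were seen). The lowest HGFAC-KO diet count, 467, came without KO chow replicate 2, and the HF/HS genotype counts of 5 and 11 when control HF/HS replicate 7 or KO HF/HS replicate 5, respectively, was left out. The cause was not tested.

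Mice share replicate numbers across groups, but same-numbered mice did not deviate together in every pair of any comparison, so the numbers were not taken as pairs. The correlation of their deviations was over 0.1 in 0 of 7 pairs between diets in controls (-0.232 to 0.0901), 4 of 6 in HGFAC-KO mice (-0.148 to 0.267), 1 of 6 between genotypes on chow (-0.145 to 0.368) and 3 of 7 on HF/HS (-0.252 to 0.291). With a replicate block, 774 genes passed the threshold for diet in controls, where *Abcb1a*, *Tsku*, *Cpox*, *Cyb5a*, *Cyp2d9* and *Selenbp2* no longer did, and in HGFAC-KO mice *Cyp2a4*, *Cyp2c67*, *Cyb5a*, *Hsd3b5*, *Slco1a1*, *Cyp4a12b* and *Adgre1* no longer did.

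Among the 10 genes, whose diet results were known when they were chosen, *Cyp2c50* was not past the threshold in controls in the fit of all 27 mice, and passed it in HGFAC-KO mice in 3 settings, among them without KO chow replicate 1. *Cyp2c54* passed it in controls in 6 settings. Of the other CAR and PXR targets, 24 to 27 fell in controls and 22 to 26 in HGFAC-KO mice. *Egfr* lost its call in the fit of all 27 mice, *Dbp* in 7 settings, *Foxa2* in 6 and *Cpox* in 11. *Cyp2b10* on HF/HS and *Cyp2b13* everywhere are limited by depth.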

Other observations

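Genes that are higher in male than in female mouse liver moved both ways between diets. Of 14, all tested, 6 rose and 3 fell on HF/HS in controls, where 4.93% of all genes rose and 5.60% fell, and 4 rose and 2 fell in HGFAC-KO mice, where 3.17% rose and 2.73% fell. Their median log2 fold changes were 0.43 and 0.29. Several of these calls were lost in alternative settings, in controls *Cyp2d9* and *Selenbp2* in 13 each and *Cyp4a12b* in 2, and in HGFAC-KO mice *Cyp4a12b* in 12, *Mup20* and *Slco1a1* in 8 each and *Hsd3b5* in 1, the replicate block. *Hsd3b5*, a steroid dehydrogenase gene, rose by 1.34 (standard error 0.14, adjusted p = 2.58e-05) in controls and by 1.21 (standard error 0.23, adjusted p = 0.00784) in HGFAC-KO mice. *Cyp4a12a*, a fatty acid omega-hydroxylase gene, fell by 0.62 (standard error 0.10, adjusted p = 0.00114) and by 0.76 (standard error 0.13, adjusted p = 0.00373). Also higher in controls were *Elovl3* (log2 fold change 0.81, adjusted p = 0.00249), *Cyp2u1* (0.62, adjusted p = 0.00530) and *Slco1a1* (0.53, adjusted p = 0.00724), and *Cyp4a12b* (-0.43, adjusted p = 0.0224) and *Cyp2d9* (-0.21, adjusted p = 0.0462) were lower. In HGFAC-KO mice *Cyp2u1* (0.69, adjusted p = 0.0117), *Mup20* (0.46, adjusted p = 0.0347) and *Slco1a1* (0.38, adjusted p = 0.0356) were higher and *Cyp4a12b* (-0.61, adjusted p = 0.0463) was lower, all in edgeR's test. Between genotypes 0 passed the threshold in edgeR on either diet, 6 on chow and 4 on HF/HS had an unadjusted p under 0.05, and DESeq2 called 3 on chow and 0 on HF/HS. Over all genes, 812 of 13571 on chow and 1306 of 13544 on HF/HS had an unadjusted p under 0.05 in edgeR. DESeq2 called 13 genes in all on chow and 55 on HF/HS.

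*Cyp2b9* had 13 to 49 counts in chow replicates 1 and 2 of both genotypes and at most 2 counts in the other chow mice, and 4 of the 5 *Cyp2b13* reads were in the replicate 2 mice of the 4 groups. *Cyp2b10* and *Cyp2b9* were high in some of the same chow mice. Control chow replicates 1 and 2 had 10.7 and 15.8 CPM of *Cyp2b10* and the 2 highest *Cyp2b9* counts of their group, and KO chow replicate 2 had the highest level of both in its group (18.6 and 0.604 CPM). KO chow replicate 5 went against this, with 15.4 CPM of *Cyp2b10* and 2 *Cyp2b9* counts, as did KO chow replicate 1, with the lowest *Cyp2b10* of the chow mice (2.05 CPM) and 0.439 CPM of *Cyp2b9*. That mouse also had the highest *Cyp2c55* (6.39 CPM) and the lowest *Nr1i3* (96.5 CPM), *Cyp2c37* (37.1 CPM) and *Cyp2c50* (186 CPM) of the chow mice. These values were picked out after the data were seen, and no test was made.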
